A study of Homo sapiens with 12 samples.

Results

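The genes of bile acid handling and FGF19 signalling described here are KLB, FGFR4, FGF19, NR1H4, NR0B2, SLC10A2, SLC51A, SLC51B and FABP6, grouped by their roles. The selection rule itself uses symbols only, but the genes were proposed with earlier results of these data known. Probe sets that the array's annotation assigns to exactly 1 of these symbols were used. This gave 14 probe sets for 8 of the 9 genes, out of 54675 probe sets and 19775 genes in all, and NR1H4 was not analysed here. KLB and FABP6 had several probe sets, as did FGFR4, and each gene was represented by its brightest probe set, judged by the mean of all 12 arrays.

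Total RNA came from differentiated Caco-2 cells, a human colon carcinoma line that takes on enterocyte traits at confluence, used 21 days after confluence at passage 22. Each of 4 groups had 3 arrays: cells in medium alone, cells with surfactant coated silver nanoparticles (AgPURE) at 2.5 µg/mL or 25 µg/mL, and cells with silver ions (AgNO3) at 0.5 µg/mL, all for 24 h. The medium of every group, controls included, was DMEM with an insulin, transferrin and selenium supplement and antibiotics, and the labels' protocols name no added bile acid. No group received the surfactant without silver, and the particle and ion doses differ, so neither the coating nor the form of silver can be told apart from these other differences. Whether the 3 arrays of a group stem from different cultures is not given in the labels. The p-values thus rest on the variation among the arrays at hand, and that variation may be technical only.

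In the ileum, bile acids enter enterocytes through the sodium-dependent transporter encoded by SLC10A2, are bound in the cytosol by the product of FABP6, and leave at the basolateral side through a heterodimer of the SLC51A and SLC51B proteins. Inside the cell they activate FXR, the nuclear receptor encoded by NR1H4, which induces FGF19, the repressor gene NR0B2, the SLC51 pair and FABP6. FGF19 is a hormone that acts on the liver through FGFR4 with the co-receptor beta-Klotho, the product of KLB, and lowers bile acid synthesis at CYP7A1. KLB is also part of the FGF21 receptor.

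On the deposited log2 scale, KLB and SLC51B fell with nanoparticles at 25 µg/mL, and the other genes of the axis differed from medium by at most 0.28. Among the 8 genes, 2 fell and SLC51A rose, at an adjusted p under 0.05 in limma. Of all genes, 33.4% passed the same test, 19.3% lower and 14.1% higher. A count of 3 of 8 is therefore near the background, and the result lies in the size of single differences. The median difference was -0.03 over the 8 genes and -0.011 over all genes. At 2.5 µg/mL and with silver ions, 0 of the 8 genes passed, as did 0% of all genes. An F test over the 4 groups in limma called KLB (adjusted p = 1.3e-07), SLC51B (0.00031) and SLC51A (0.045), where 31.8% of all genes were called.

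**Figure D1:**
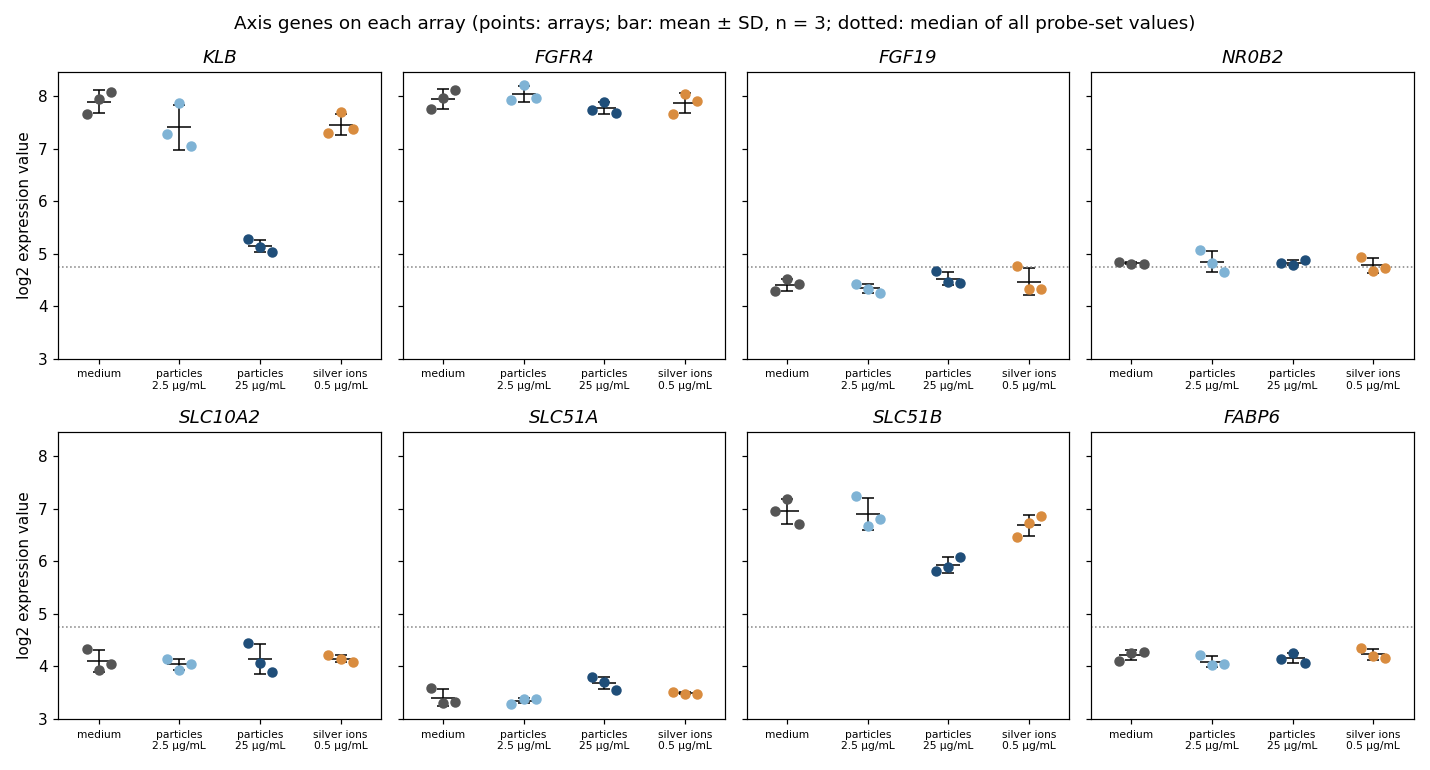
Each panel plots the log2 expression value (vertical axis) of 1 gene on the 12 arrays, by group (horizontal axis), with the mean ± SD of 3 arrays and a dotted line at the median of all probe-set values, 4.75. KLB lies between 5.04 and 5.27 at 25 µg/mL and at 7.05 or above elsewhere, SLC51B is lowest at 25 µg/mL, and the remaining genes stay within narrow bands.

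The promoters of the genes that fell are shown because KLB and SLC51B moved in the same direction. They run from 250 bases before to 50 bases after the start of the gene in RefSeq on GRCh38.p14, both on the plus strand, KLB at chr4:39406680-39406979 and SLC51B at chr15:65045137-65045436. Capitals mark AGGTCA, the core motif that many nuclear receptors bind.
KLB: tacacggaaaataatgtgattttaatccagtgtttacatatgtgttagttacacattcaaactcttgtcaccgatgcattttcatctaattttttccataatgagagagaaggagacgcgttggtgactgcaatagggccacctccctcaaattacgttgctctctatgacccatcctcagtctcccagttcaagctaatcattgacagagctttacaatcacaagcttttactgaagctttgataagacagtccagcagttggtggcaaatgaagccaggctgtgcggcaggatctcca
SLC51B: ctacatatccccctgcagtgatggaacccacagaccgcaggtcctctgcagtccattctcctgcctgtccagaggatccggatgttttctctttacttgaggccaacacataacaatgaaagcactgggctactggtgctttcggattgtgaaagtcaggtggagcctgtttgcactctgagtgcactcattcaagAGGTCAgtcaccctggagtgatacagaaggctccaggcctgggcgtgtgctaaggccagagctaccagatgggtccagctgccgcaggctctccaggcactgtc

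The SLC51B window holds 1 such motif, at bases 197 to 202 of the window, and the KLB window holds none. The window of NR1H4 holds 1 on the minus strand. This motif occurs on either strand in 13.8% of 35116 RefSeq windows of that length. Also searched on both strands were the inverted repeat of AGGTCA bound by FXR (0.0057% of windows), its direct repeat (0.0228%), the HNF1 motif (0.0484%), the extended core motif of LRH-1 (0.353%), the heat shock element (0.49%) and the metal response core TGCGCNC (20.0%). AGGTCA lies inside the inverted repeat, the direct repeat and the LRH-1 motif. None of these others was found in the 8 windows that the table gives for 7 of the 9 genes. Only exact matches to the motifs were counted. The inverted repeat occurred in 2 and the direct repeat in 8 of the 35116 windows, so their absence here says little. A match is a description of the letters only.

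KLB, which encodes the co-receptor that lets FGFR4 bind FGF19, had the largest difference of the axis. Its log2 values were 7.65, 7.94 and 8.08 on the medium arrays and 5.27, 5.12 and 5.04 at 25 µg/mL. The groups did not overlap, and the 3 arrays at 25 µg/mL lay closer together than those in medium. The mean went from 7.89 ± 0.22 to 5.14 ± 0.12 (SD, n = 3), a log2 difference of -2.75 ± 0.18 (SE) with a 95% interval of -3.13 to -2.37, which is 6.72-fold lower (limma adjusted p = 4.9e-08). This was the 6th lowest difference among 19775 genes. In this bulk RNA, fewer cells of a type and less RNA per cell cannot be told apart.

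The second KLB probe set moved the same way. It read 5.28, 5.67 and 5.90 in medium and 3.59, 3.52 and 3.52 at 25 µg/mL, again without overlap. Its difference was -2.07 ± 0.17 (SE), with a limma adjusted p of 4.6e-07 when every probe set was tested. At 25 µg/mL it stood at percentile 9 of all probe sets, where little signal is left to lose. The main probe set was at percentile 52 there and at percentile 80 in medium.

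KLB read somewhat lower than in medium at the milder exposures, and neither difference passed a test over all genes. At 2.5 µg/mL the values were 7.28, 7.87 and 7.05, of which 7.87 lay within the medium range. The difference was -0.49 ± 0.18 (SE), 95% interval -0.87 to -0.11, and did not pass over all genes (unadjusted p = 0.015, limma adjusted p = 1). With silver ions the values were 7.30, 7.69 and 7.38, and the difference was -0.43 ± 0.18 (SE), 95% interval -0.81 to -0.06 (unadjusted p = 0.027, adjusted p = 0.78). Each group had 1 array inside the medium range and the others below it. Ranked over all genes, these were the 11th and the 38th lowest differences of their comparisons. Both comparisons use the same 3 medium arrays. The second probe set gave -0.21 and -0.16 with intervals that include 0.

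Ordered by mean, KLB was highest in medium (7.89), followed by silver ions (7.45), 2.5 µg/mL (7.40) and 25 µg/mL (5.14). The neighbours in this order did not pass a test over all genes except the last pair. Nanoparticles at 25 µg/mL were 2.26 ± 0.18 (SE) log2 units below those at 2.5 µg/mL (4.79-fold, limma adjusted p = 3.2e-07). Against silver ions the difference was -2.31 ± 0.18 (4.97-fold lower, adjusted p = 3e-07). Between 2.5 µg/mL and silver ions it was -0.05, with a 95% interval of -0.43 to 0.32.

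**Figure D2:**
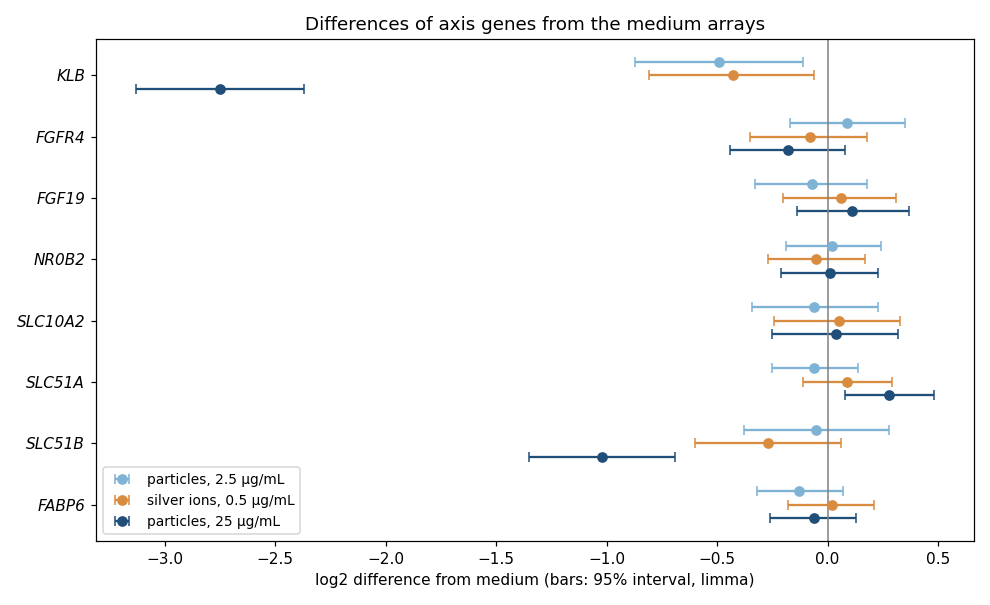
For each of the 8 genes, points give the log2 difference from medium (horizontal axis) of each treated group, with 95% intervals from limma. KLB (-2.75) and SLC51B (-1.02) at 25 µg/mL lie farthest from 0, and KLB lies below 0 in all 3 treated groups.

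FGFR4, the receptor that pairs with KLB, did not pass a test in any comparison on the deposited scale. Its values were 7.75, 7.97 and 8.12 in medium and 7.74, 7.89 and 7.68 at 25 µg/mL, and the groups overlapped. The difference was -0.18 ± 0.12 (SE), 95% interval -0.44 to 0.08 (limma adjusted p = 0.31). At 2.5 µg/mL FGFR4 differed by 0.09 and with silver ions by -0.08, with intervals that include 0. Its other probe sets differed by -0.23, -0.04 and 0.13 at 25 µg/mL, none with an adjusted p under 0.05. Between the particle doses it was 0.26 lower at 25 µg/mL without overlap, which did not pass over all genes (unadjusted p = 0.047, adjusted p = 0.11). Under poly-A and hybridization scaling FGFR4 was called lower at 25 µg/mL than in medium, as most genes were. The differences were -0.79 and -0.60 (limma adjusted p = 0.0027 and 0.0011).

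A difference between genes on the same array is unchanged when all log2 values of an array are shifted by the same amount. A scaling that depends on intensity, such as quantile normalization, can still change it. KLB minus FGFR4 was -0.10, -0.03 and -0.04 in medium and -2.47, -2.77 and -2.64 at 25 µg/mL. It was -0.65, -0.34 and -0.91 at 2.5 µg/mL and -0.35, -0.34 and -0.53 with silver ions. All 3 arrays of each treated group thus lay below all 3 medium arrays, whereas KLB by itself overlapped with medium in the milder groups. The shifts from medium were -2.57, -0.57 and -0.35 at 25 µg/mL, at 2.5 µg/mL and with ions. This pair was chosen after the values were seen, and the shifts are descriptions with no test.

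**Figure D3:**
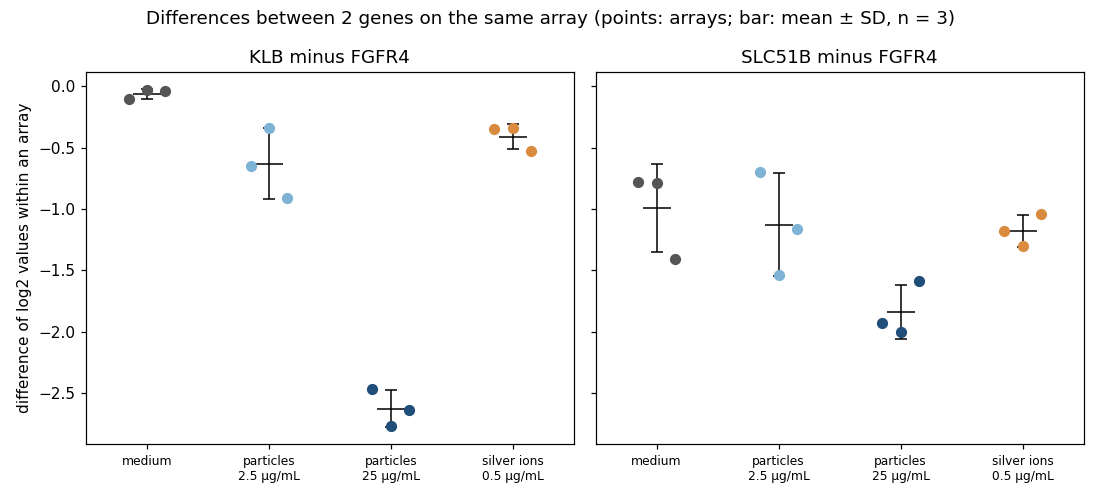
The difference of log2 values between KLB and FGFR4 (left) and between SLC51B and FGFR4 (right) on each array (vertical axis) is plotted by group, with the mean ± SD of 3 arrays. KLB minus FGFR4 is close to 0 on the medium arrays and lower on every treated array, and SLC51B minus FGFR4 is below the medium range on all 3 arrays at 25 µg/mL and on 1 array at 2.5 µg/mL (-1.54).

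SLC51B, the smaller subunit of the basolateral bile acid exporter, also fell, from 6.96, 7.18 and 6.71 in medium to 5.81, 5.89 and 6.09 at 25 µg/mL. The groups did not overlap. The difference was -1.02 ± 0.15 (SE), 95% interval -1.35 to -0.69, which is 2.03-fold lower (limma adjusted p = 0.00012). At 2.5 µg/mL the values were 7.24, 6.67 and 6.80, and with silver ions 6.46, 6.73 and 6.86. Both groups overlapped with medium, with differences of -0.05 (95% interval -0.38 to 0.28) and -0.27 (-0.60 to 0.06). Compared with the other treated groups, SLC51B at 25 µg/mL was 1.96-fold lower than at 2.5 µg/mL (adjusted p = 0.00018) and 1.69-fold lower than with ions (adjusted p = 0.0015). Relative to FGFR4 on the same array the shift from medium was -0.85 at 25 µg/mL, and 1 medium array (-1.41) came near the highest 25 µg/mL array (-1.59).

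SLC51A, the partner subunit without which SLC51B forms no exporter, gave a small rise at a level near the bottom of the array. Values were 3.59, 3.31 and 3.32 in medium and 3.80, 3.70 and 3.56 at 25 µg/mL, so that the groups overlapped. The difference was 0.28 ± 0.09 (SE), 95% interval 0.08 to 0.48 (limma adjusted p = 0.030). In medium the probe set stood at percentile 6 of all probe sets. Among the 1978 genes in the lowest 10% by mean over all arrays, 3.29% were called higher and the median difference was 0.01. It no longer passed when medium replicate 2 (adjusted p = 0.11) or 3 (0.12) was left out, nor without 25 µg/mL replicate 1 (0.13) or 2 (0.078), and in a fit of only these groups (0.068). Against 2.5 µg/mL the difference was 0.34 (adjusted p = 0.011), and without 25 µg/mL replicate 1 its adjusted p was 0.055. Against ions it was 0.19 (adjusted p = 0.14).

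For the comparisons between treated groups, 3 of the 8 genes passed between the particle doses, where 34% of all genes did (20.3% lower, 13.7% higher). Between 25 µg/mL and silver ions 2 of 8 passed, both lower, where 32.3% of all genes did (18.6% lower and 13.7% higher). Between 2.5 µg/mL and ions it was 0 of 8 and 0% of all genes. At 2.5 µg/mL against medium, 900 genes had an unadjusted p under 0.05 in limma, for ions against medium 1233, and for 2.5 µg/mL against ions 1735.

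FGF19, SLC10A2 and FABP6 read low on every array, and NR0B2 read close to the median of all values. The FGF19 probe set lay between 4.26 and 4.76 over the 12 arrays, at percentile 36 of all probe sets by mean. SLC10A2, the gene of the apical uptake transporter, lay between 3.90 and 4.45 (percentile 27). The 3 probe sets of FABP6, the ileal bile acid binding protein, lay between 3.57 and 4.35 in all. NR0B2, which encodes the repressor SHP, lay between 4.66 and 5.06, around the median of all values. Without detection calls the table does not say whether such values are above background.

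None of these genes passed a test in any of the comparisons on the deposited scale. At 25 µg/mL FGF19 differed from medium by 0.11 (95% interval -0.14 to 0.37), NR0B2 by 0.01 (-0.21 to 0.23), SLC10A2 by 0.04 (-0.25 to 0.32) and FABP6 by -0.06 (-0.26 to 0.13). The widest range over 12 arrays among these genes was 0.55, for SLC10A2, against 3.04 for KLB and 1.43 for SLC51B.

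Marker lists were read as a description of the cells. Of 10 enterocyte markers, 7 lay above the array medians in medium, with EPCAM, CDH17 and VIL1 at 13.20, 10.57 and 10.38, whereas the brush border enzyme gene SI (3.56, percentile 6), FABP2 (4.18) and KRT20 (4.69) did not. Of 8 hepatocyte markers, 6 lay above, among them ALB, APOA1 and SERPINA1. So did 3 of 5 fibroblast, 2 of 3 endothelial, 1 of 4 goblet, 1 of 3 enteroendocrine and 1 of 3 leukocyte markers. By mean over all arrays, 12640 of all 19775 genes lay above 4.75, the median of all values. These counts therefore do not settle the identity of the cells. At 25 µg/mL 5 of the 8 hepatocyte markers were lower and 0 higher, where 19.3% of all genes were lower and 14.1% higher, with a summed linear signal of 4080 to 4570 against 6570 to 11300 in medium. Of the enterocyte markers 5 were lower and 0 higher, and the sum was 11000 to 11300 against 12600 to 12900. EPCAM, the brightest of them, weighs most in this sum and was not called (-0.17, limma adjusted p = 0.13). The hepatocyte and enterocyte lists moved with KLB and SLC51B, and their part in the result was not tested. Fibroblast, endothelial, leukocyte, goblet and enteroendocrine lists had at most 1 marker called in either direction.

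The 25 µg/mL arrays also differed as arrays. They correlated with medium arrays at r = 0.978 to 0.981 across probe sets, and medium arrays among themselves at 0.995. MT1X, MT2A and HMOX1, which respond to metals and oxidative stress, rose 10.3-fold, 7.75-fold and 17.2-fold. Poly-A control probe sets read 0.61 higher than in medium and hybridization controls 0.43 higher. Scaling on these controls shifts all genes to a median of -0.62 and -0.44, with 14081 and 12835 genes called lower, and directions here are relative to the authors' normalization. Under poly-A and hybridization scaling KLB differed by -3.36 and -3.18 and SLC51B by -1.64 and -1.45, while SLC51A turned to -0.33 and -0.15.

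Beyond the axis itself, FGF receptor genes included calls in both directions at 25 µg/mL. Of 11 measured FGF receptor partners and adaptors, 3 fell and 2 rose, near the shares of all genes (19.3% lower, 14.1% higher), with a median of -0.10 against -0.011 over all genes. Under poly-A and hybridization scaling, which turn most genes lower, 8 and 7 were lower and 0 higher. These scalings called 14081 and 12835 of all 19775 genes lower. FGFR3 fell from a mean of 10.17 to 9.26 (1.88-fold, limma adjusted p = 3.5e-06, the other probe set -0.12) and FGFR2 from 11.46 to 10.64 (1.76-fold, adjusted p = 2e-05), the latter over 11 probe sets of both signs. The signalling adaptor gene SOS1 rose 1.55-fold (adjusted p = 0.00024) and GAB1 fell by 0.35 on the log2 scale, with 7 probe sets between -0.44 and 0.00. FGFR1, a KLB partner for FGF21, rose by 0.32 (adjusted p = 0.02), with 6 of 7 probe sets above 0, a value that turned to -0.29 and -0.11 under poly-A and hybridization scaling, and SOS1 lost its call there (0.02 and 0.21). KL, the relative of KLB that serves FGF23, differed by -0.18 (adjusted p = 0.25).

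Among nuclear receptors and factors that control bile acid genes, 7 of 17 measured genes fell and 1 rose, beside 19.3% and 14.1% of all genes, with a median of -0.14 against -0.011. Poly-A scaling gave 15 lower and 0 higher, and hybridization scaling 15 lower and 1 higher. Of all 19775 genes, these scalings called 14081 and 12835 lower. PPARA, the fatty acid receptor gene, fell 1.78-fold (adjusted p = 0.00014), the coactivator gene NCOA1 1.77-fold (6.5e-06) and the oxysterol receptor gene NR1H3 1.54-fold (2.1e-05). RXRA, the partner of FXR on DNA, fell 1.33-fold from 7.67 to 7.26 (adjusted p = 0.0075), and its other probe set was 2.99-fold lower (-1.58, adjusted p = 1.8e-05 over all probe sets). MAFG rose 1.93-fold, from 8.29 to 9.24 (adjusted p = 4.8e-05), a call that was lost under poly-A scaling (0.33). The membrane bile acid receptor genes GPBAR1 and S1PR2 differed by 0.04 and -0.07 and were not called. Under poly-A and hybridization scaling both were called lower, as most genes were.

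Of 16 other transporters of bile acids, bilirubin and sterols, 4 were lower and 3 higher, near the shares of all genes (19.3% and 14.1%), with a median of -0.03. Under poly-A scaling and under hybridization scaling alike, 12 were lower and 0 higher, beside 14081 and 12835 of all 19775 genes called lower. SLC10A1, the sodium-dependent bile acid importer known from hepatocytes, fell 4.78-fold, from 7.53 to 5.27 (-2.26 ± 0.18 SE, adjusted p = 3.9e-07). The organic anion importer gene SLCO2B1 fell 2.66-fold, from 9.78 to 8.36 (adjusted p = 9.9e-09). The basolateral exporter gene ABCC3 fell 1.70-fold, and ABCG2, an apical efflux pump gene, rose 1.67-fold, a call that was lost under poly-A and hybridization scaling (0.13 and 0.32). The apical bile salt pump gene ABCB11 read 3.94 in medium and differed by -0.04. ATP8B1 counted as lower (-0.73), while its other probe set was higher (0.83, limma adjusted p = 0.00013 over all probe sets). ABCC4 was not called (0.05), while its other probe sets were called lower, between -0.77 and -0.47.

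In bile acid synthesis and conjugation 7 of 16 genes fell and 0 rose, beside 19.3% and 14.1% of all genes, with a median of -0.17 against -0.011. The count of lower genes was 15 under poly-A and 13 under hybridization scaling, beside 14081 and 12835 of all 19775 genes. The peroxisomal thioesterase gene ACOT8 fell 1.81-fold (adjusted p = 2e-06), BAAT, which joins bile acids to glycine or taurine, 1.69-fold (0.0026), SLC27A2 1.53-fold (0.00013) and AMACR 1.42-fold (0.024), 1 of whose 3 probe sets was at 0.02. BAAT and AMACR stood at 5.45 and 4.92 in medium, close to the median of all values. CYP7A1, the rate-limiting enzyme gene that FGF19 represses in liver, read 3.30 in medium (percentile 2 of genes) and differed by 0.08. In bile acid detoxification 2 of 4 genes fell and 1 rose, where 19.3% and 14.1% of all genes did. Under both control scalings, which call most genes lower, 3 were lower and 0 higher. UGT2B4 fell 3.10-fold and SULT2A1 2.65-fold. CYP3A4 rose by 0.53 on the probe set used, while another of its probe sets had the opposite sign, and its call was lost under poly-A (-0.09, adjusted p = 0.73) and hybridization scaling (0.10, adjusted p = 0.57). At 2.5 µg/mL and with silver ions 0 genes of these lists were called.

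**Figure D4:**
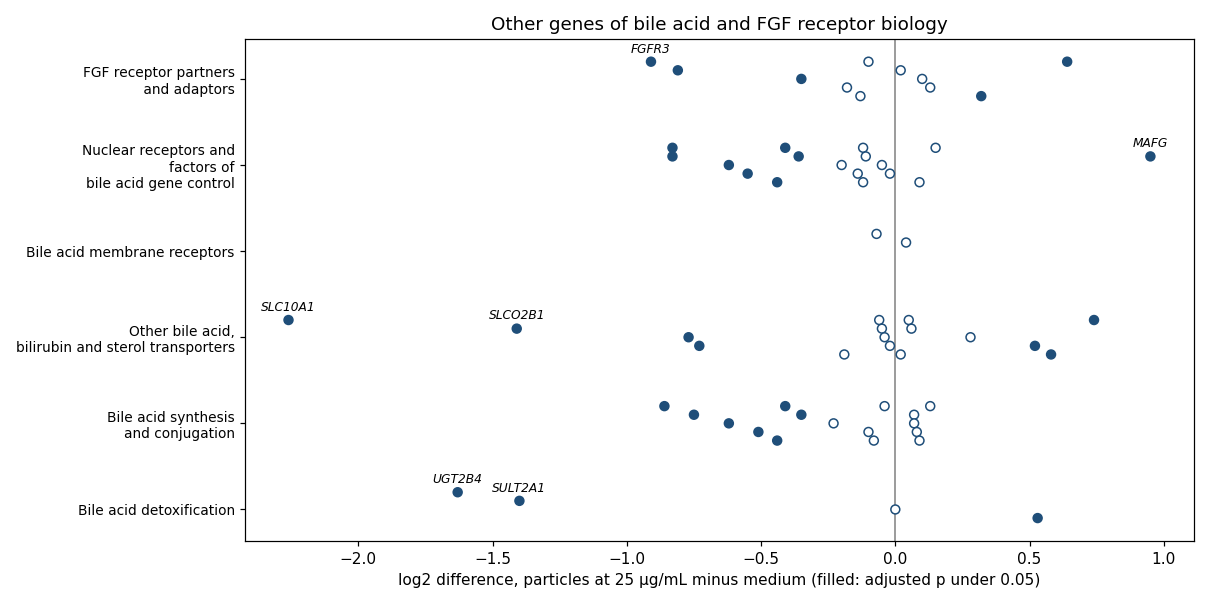
Each point is a gene of a pathway list (rows), placed by its log2 difference between 25 µg/mL nanoparticles and medium (horizontal axis), and filled points have an adjusted p under 0.05. SLC10A1 (-2.26), UGT2B4 (-1.63), SLCO2B1 (-1.41) and SULT2A1 (-1.40) lie farthest to the left, and MAFG (0.95) farthest to the right.

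Genes with profiles most like KLB were sought among the 6286 other genes called by the F test, by the root mean square difference over the 12 arrays after centring each gene on its medium mean. AGT, the angiotensinogen gene, was nearest at 0.19 (Pearson r = 0.991 over 12 arrays), then SLC38A4 at 0.28 and IFIT1 at 0.30. For SLC51B they were GIT2, PPOX and SOX30, each at 0.14, with r between 0.949 and 0.951. For SLC51A they were COPRS, TMX1 and VAMP7, each at 0.08, with r between 0.850 and 0.869. The points share the 25 µg/mL arrays, which stand apart, and the correlations are given as descriptions.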

How the data were processed

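RNA was measured on 12 arrays, 1 per sample. Each array's deposited column holds log2 expression by probe set. The submitters' processing notes name RMA and Partek, with versions and settings not given in the sources used here. All column means are 5.57, so the values as deposited by the authors cannot show a change in total mRNA. No coordinates of probe sets and no detection calls were used.

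Probe sets with 1 symbol (41091) were named from the platform annotation, and 41037 of them took the current RefSeq symbol of their gene ID. The test was limma (version 3.58.1, under R 4.3.3), two-sided, with 1 model for 4 groups (8 residual degrees of freedom, 6.25 prior; Benjamini-Hochberg adjustment over 19775 genes, threshold 0.05). Errors of differences are limma standard errors. The fit was tested on simulated data. The members, lists and rule for named genes were chosen with earlier results of these data known. The rule named all members, up to 4 called genes of a list with the largest differences at 25 µg/mL, a few defining genes, and the 3 genes of most similar profile. ATP8B1 and ABCC4 were named outside this rule because their probe sets disagreed. The number of arrays limits precision. No 2 arrays were identical. Alternatives were other scalings, a filter on dim genes, other uses of probe sets, other variance models, fits restricted to the compared groups, and omission of single arrays. Figures were drawn with matplotlib 3.10.9.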

Additional observations from a re-analysis of the deposited data

How the results depend on the processing

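KLB and SLC51B kept their direction and their calls at 25 µg/mL against medium, 2.5 µg/mL and ions under every alternative run. Leaving out arrays gave -2.87 to -2.65 for KLB and -1.14 to -0.91 for SLC51B against medium. Only scaling on control probe sets moved a count by over 1.5 times. Under poly-A scaling 7 of 8 genes were called against medium, 7 against 2.5 µg/mL, 8 against ions and 7 by the F test. Under hybridization scaling 6 were called against medium and 7 against ions. In these comparisons all called genes among the 8 were lower, and both scalings lower the mean of every gene at 25 µg/mL by construction. Against medium, poly-A scaling called 14081 of all 19775 genes lower and 179 higher, and hybridization scaling 12835 lower and 508 higher. The counts among the 8 genes are therefore no result about the axis. For the other comparisons and the F test, counts over all genes under these scalings are not given here.

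A value counted as reversed if its sign changed and the main or the alternative fit called it. Against medium, the reversed values under poly-A and hybridization scaling were -0.61 and -0.42 for NR0B2 and -0.58 and -0.39 for SLC10A2. For SLC51A they were -0.33 and -0.15, and for FGF19 -0.50 under poly-A. FGF19 also turned to -0.31 under hybridization scaling, where neither fit called it, and other sign changes without a call are not listed. Against 2.5 µg/mL the reversed values under poly-A were -0.68 for FABP6, -0.56 for FGF19, -0.65 for SLC10A2 and -0.41 for SLC51A. Under hybridization scaling the value was -0.01 for SLC51A. Against ions they were -0.73 and -0.38 for FGF19 and likewise -0.73 and -0.38 for NR0B2, and -0.60 for SLC51A under poly-A. The filter on dim genes (mean above 4.75) left 4 of the 8 genes. No paired analysis was possible because the labels carry no replicate numbers. The replicate numbers given above only follow the order of the arrays within each group. Without detection calls, differences of dim genes are limited by an unknown background.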
